A study of Mus musculus with 10 samples.

Results

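The report concerns 10 genes best known from T cells and natural killer (NK) cells, followed in progenitors of mouse bone marrow that were sorted as lineage-negative: Cd4, Cd3e, Cd3g, Cd8a, Nkg7, Gzmb, Gzma, Klrb1c, Il2rb and Tcf7. They were chosen by name, with earlier results of these data known, and all 10 were found among the 46351 gene IDs of the deposited count tables. RNA-seq was available for 10 libraries from C57BL/6 mice aged 12 months. GMP are granulocyte-macrophage progenitors (Lin- Sca1- cKit+ CD34+ FcgR+), and LSK cells (Lin- Sca1+ cKit+) hold the stem cells and the earliest multipotent progenitors. Every mouse carried Dnmt3a f/f, the floxed gene of a de novo DNA methyltransferase, and all libraries carry the same note of 5 poly(I:C) injections. KO mice also carried Mx1-Cre, a Cre that interferon signalling switches on in blood-forming cells and in other tissues; CTRL mice lacked Cre, so loss of Dnmt3a cannot be told apart from the presence of Cre. Each population had 3 KO and 2 CTRL libraries, written here as genotype and number: GMP KO-178, KO-179, KO-352, CTRL-346 and CTRL-350, and LSK KO-1327, KO-1333, KO-1334, CTRL-1326 and CTRL-1330. Apart from these numbers the labels do not say that each library is a separate animal, so each p-value refers to the spread among libraries, which may be technical.

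CD3 chains assemble with the T cell receptor and carry its signal, and CD4 and CD8 are the coreceptors that bind MHC class II and class I beside it. Granzymes A and B are proteases that cytotoxic T and NK cells store in granules and release into target cells, NKG7 is a membrane protein of those granules, Klrb1c encodes the NK receptor known as NK1.1, and Il2rb encodes the beta chain shared by the IL-2 and IL-15 receptors. Tcf7 encodes TCF-1, a transcription factor of early T cell development that is also used by innate lymphoid and memory T cells. In marrow these genes are not all private to lymphocytes: mouse CD4 and CD8 alpha are found on subsets of dendritic cells, and granule genes are transcribed in several myeloid lineages. Antibodies to T and NK cell surface proteins are commonly part of lineage depletion, but the antibodies used here are not given in the labels.

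Upstream sequence is shown for Klrb1c and Gzma, which had a similar order of levels across the GMP libraries, and for Gzmb, which had a different one. Each window runs from 250 bases before to 50 bases after the RefSeq start (300 bases, GRCm38.p6, 5′ to 3′ on the gene's strand), and capitals mark CG, the dinucleotide that DNA methyltransferases modify and which reads the same on both strands.
Klrb1c, chr6:128788592-128788891, minus strand: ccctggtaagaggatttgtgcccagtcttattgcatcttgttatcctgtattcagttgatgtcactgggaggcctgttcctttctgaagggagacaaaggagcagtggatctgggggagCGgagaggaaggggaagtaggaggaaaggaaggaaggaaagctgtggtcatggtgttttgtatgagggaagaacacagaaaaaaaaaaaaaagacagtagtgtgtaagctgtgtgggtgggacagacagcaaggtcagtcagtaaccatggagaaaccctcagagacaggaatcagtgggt
Gzma, chr13:113100932-113101231, minus strand: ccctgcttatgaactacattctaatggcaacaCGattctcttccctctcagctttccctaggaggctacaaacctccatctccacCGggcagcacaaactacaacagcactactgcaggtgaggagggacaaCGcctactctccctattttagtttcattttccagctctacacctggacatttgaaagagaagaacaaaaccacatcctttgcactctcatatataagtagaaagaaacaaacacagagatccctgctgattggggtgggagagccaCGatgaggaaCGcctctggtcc
Gzmb, chr14:56262285-56262584, minus strand: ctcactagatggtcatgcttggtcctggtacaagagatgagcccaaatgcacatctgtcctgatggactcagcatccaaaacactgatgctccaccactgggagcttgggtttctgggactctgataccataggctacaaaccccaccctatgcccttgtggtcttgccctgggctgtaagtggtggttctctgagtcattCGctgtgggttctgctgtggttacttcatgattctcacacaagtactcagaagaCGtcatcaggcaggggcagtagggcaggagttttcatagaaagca
The Klrb1c window held 1 CG, the Gzmb window 2 and the Gzma window 5. Across all 32851 windows of this table the median was 7, 94.6% held at least 1, and 14.1%, 23.3% and 43.6% of windows held no more CG than those of Klrb1c, Gzmb and Gzma. Of the other members with a window, Cd8a and Nkg7 held 3, Cd3g 4, Cd3e 8, and Tcf7 17 and 45 in its 2 windows; 8 of the 10 members matched the table. The CG-rich windows of Tcf7 held more CG than those of the cytotoxic genes. No methylation was measured in the files analysed here, so the counts describe sequence only.

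Dnmt3a was lower in every KO library than in either CTRL library of its population. In GMP the KO libraries held 44.7 CPM (counts per 1000000 reads counted on genes), 57.4 and 17.7, in the order KO-178, KO-179, KO-352, against 127 and 99.0 in CTRL. In LSK it was at 57.8 to 65.4 CPM in KO against 168 ± 0.87 (SD, n = 2) in CTRL. The GMP libraries held 93850256 to 122658636 reads on genes and the LSK libraries 29533371 to 30437981, so 1 CPM stood for about 92.7 to 127 reads in GMP and 29.3 to 30.9 in LSK. Genes of the GMP gate and its granules numbered 8, with Mpo and Ctsg among the most abundant. They summed to 12910 to 22060 CPM in GMP and 2968 to 3573 in LSK. Cd34 of this list ran the other way, at 310 to 438 CPM in GMP and 809 to 1020 in LSK. All 8 genes of the LSK gate and stem cell list, such as Kit, were higher in LSK. GMP KO-352 carries a description that refers to LSK data, and its title was followed. KO-178 and KO-179 stood apart among the GMP libraries in the NK cell genes described below, and reads that fell outside annotated genes were 15.5%, 16.1% and 10.3% of the reads listed for the KO libraries, in the order above, and 8.50% and 14.2% in CTRL. LSK CTRL-1326 and KO-1327 were male and the other LSK libraries female by Xist. The GMP libraries held 0.159 to 1.89 CPM of Xist, beside 1.17 and 1.25 in the male LSK libraries and 830 to 1360 in the female ones.

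The first question was how the members stand in progenitors at all. Nkg7 was the only member with an abundant transcript. Per kilobase of annotated exon it reached 445 CPM in GMP CTRL, 309 in GMP KO, 126 in LSK CTRL and 107 in LSK KO. On the same scale the next highest member in GMP CTRL was Gzmb at 5.74, and Tcf7 was the next in both LSK groups, at 2.24 in CTRL and 2.39 in KO. Cd3e was the lowest in every group, at 0 in GMP CTRL and 0.0370 in LSK CTRL. The remaining members lay at or below 1.38 CPM per kilobase in every group, so that most of the comparisons below rest on few reads per library.

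**Figure D1:**
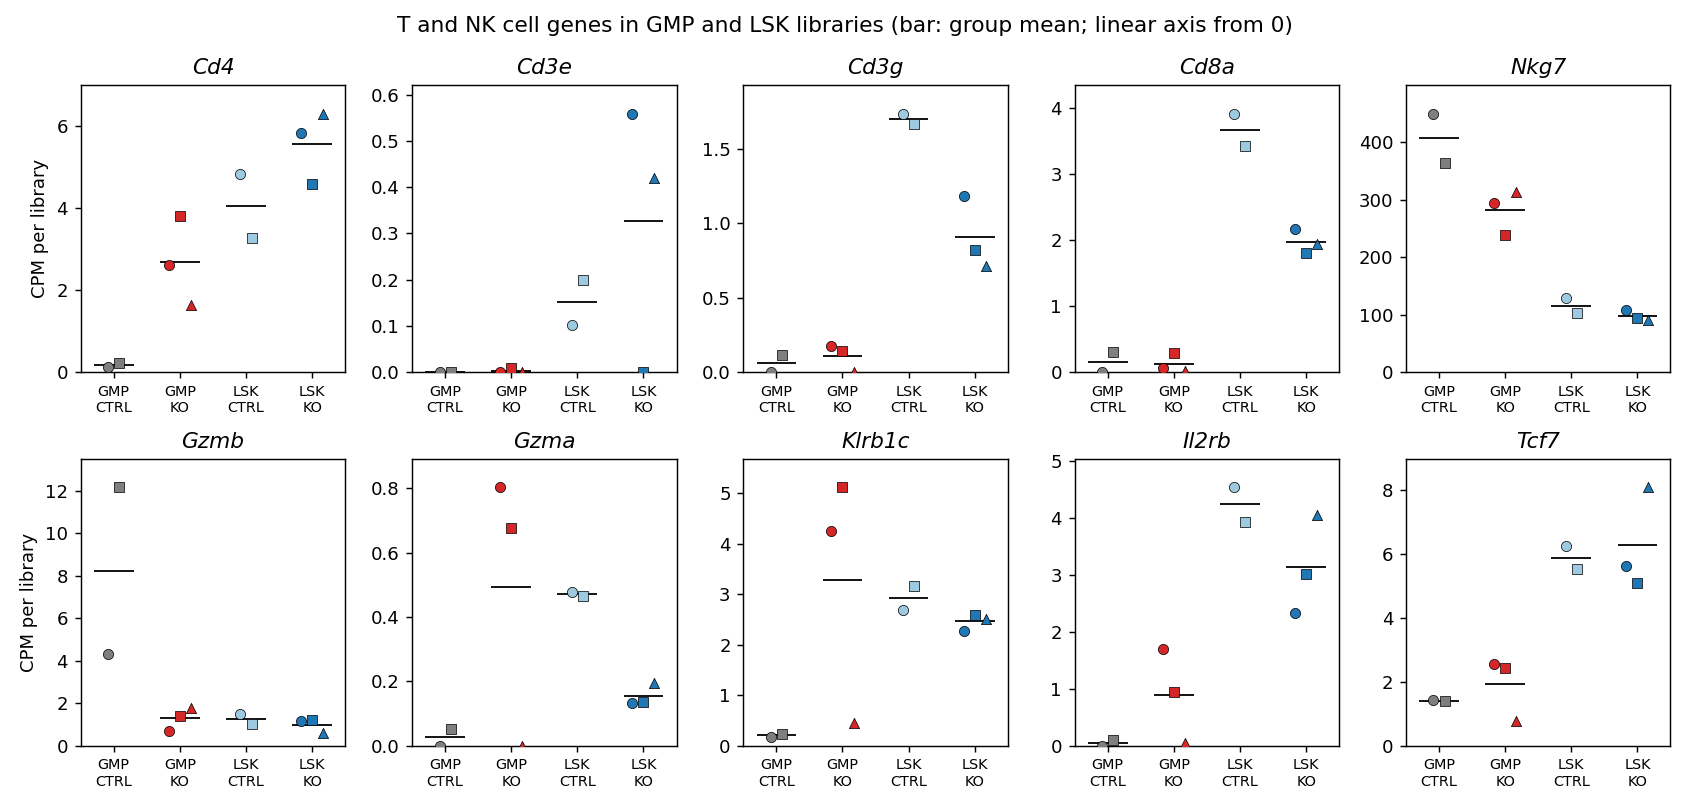
Level of each of the 10 genes in CPM (linear axis from 0) in the 4 groups; each point is a library, its shape only separates libraries within a group, and the bar is the group mean. Cd4 was above both CTRL libraries in all 3 GMP KO libraries, whereas Klrb1c, Il2rb and Gzma were high in 2 of the 3.

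LSK cells held more of the T cell members than GMP did. In the CTRL libraries, with all 10 libraries fitted together, 7 members were higher in LSK and 2 lower by edgeR's quasi-likelihood test at an adjusted p under 0.05, where 55.4% of all genes tested passed in either direction (28.2% higher, 27.3% lower). Without LSK CTRL-1326 the count higher was 4. A pass is common in this comparison, and the count of members is read only as a description. The median log2 fold change of the 10 members was 3.90, or 3.56 with Cd3e set at its lower bound, beside 0.12 over all genes tested. The levels in CPM come from each population's own scaling, and population cannot be told apart from the count table, the depth and the annotation. Female libraries by Xist were in LSK only, and sex was not a term in this fit.

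Among the T cell receptor genes, Cd3e had 0 reads in either GMP CTRL library and 3 and 6 reads in LSK CTRL-1326 and CTRL-1330, so that LSK was at least 9.52-fold higher, taking 3 reads over the group as the floor (edgeR adjusted p = 0.037). This call was lost in 7 of 14 alternatives, with limma-voom and without either GMP CTRL library, GMP KO-179, either LSK CTRL library or LSK KO-1334 (adjusted p 0.053 to 0.13). Cd3g was at 0 and 0.115 CPM in GMP CTRL and at 1.74 and 1.67 in LSK CTRL (log2 fold change 4.45 ± 1.28 SE, edgeR adjusted p = 0.013). Cd8a was at 0 and 0.303 CPM in GMP CTRL and at 3.92 and 3.43 in LSK CTRL (4.19 ± 1.29, edgeR adjusted p = 0.018; 0.054 without LSK CTRL-1326). For each of these genes the LSK CTRL libraries lay above the GMP CTRL libraries without overlap. The size of the Cd3g and Cd8a differences depended on which GMP CTRL library was kept: without CTRL-346 they were 3.5 and 3.22, and without CTRL-350, which leaves a GMP CTRL library with 0 reads and so no bound, 9.49 and 10.6.

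Cd4 was at 0.129 and 0.230 CPM in GMP CTRL and at 4.84 and 3.26 in LSK CTRL, a log2 fold change of 4.10 ± 0.49 (edgeR adjusted p = 6.85e-05). Klrb1c was higher in LSK CTRL by 3.43 ± 0.87 (edgeR adjusted p = 0.0071; limma-voom adjusted p = 0.0999). Il2rb was higher by 6.04 ± 1.4 (edgeR adjusted p = 0.0043), and by 5.10 without GMP CTRL-346 and 10.8 without GMP CTRL-350. Tcf7 was higher by 1.68 ± 0.49 (edgeR adjusted p = 0.014); without LSK CTRL-1326, or without either GMP CTRL library, its adjusted p was 0.051 to 0.059. Gzma, with 5 reads in GMP CTRL and 28 in LSK CTRL, did not pass (3.69 ± 1.64, edgeR adjusted p = 0.079; 0.0035 without GMP KO-352). The coreceptor and receptor genes thus had their lowest levels of the 4 groups in GMP CTRL, apart from Cd8a, whose GMP KO mean of 0.119 CPM lay below the GMP CTRL mean of 0.151 with overlapping libraries.

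Nkg7 and Gzmb ran the other way. Nkg7 was at 450 and 364 CPM in GMP CTRL and at 129 and 102 in LSK CTRL, a log2 fold change of −2.19 ± 0.17 (edgeR adjusted p = 4.92e-06). Gzmb was at 4.33 and 12.2 CPM in GMP CTRL and at 1.50 and 1.03 in LSK CTRL (−3.08 ± 0.61, edgeR adjusted p = 0.0017; −2.16 without GMP CTRL-350). Both genes were lower in LSK CTRL with no overlap of libraries. Of the 4 genes tested in the granzyme and perforin list, which leaves out the members, 2 were higher in LSK CTRL and 1 lower, with a median log2 fold change of 1.11. The proteoglycan serglycin (Srgn), which packs granule proteins, was the most abundant in both populations at 1622 to 1981 CPM in GMP and 475 to 582 in LSK, and was the gene called lower (−2.14 ± 0.11). The genes called higher were Serpinb9 (1.69 ± 0.19), which encodes an inhibitor of granzyme B, and Gzmm (0.93 ± 0.36), a further granzyme gene. Perforin (Prf1), which forms the pore through which granzymes enter, was at 0.0303 to 0.271 CPM in GMP and 0.323 to 0.851 in LSK without passing in CTRL (1.29 ± 0.70, edgeR adjusted p = 0.14), and Gzmf, Gzmg and Gzmn had 0 reads in all 10 libraries.

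In the wider T cell list 17 of 24 genes tested were higher in LSK CTRL and 1 lower, with a median log2 fold change of 3.55. In the NK and cytotoxic list 9 of 21 were higher and 2 lower, with a median of 3.07 (3.04 with the 2 genes of 0 reads in GMP CTRL at their bounds). Over all genes tested 28.2% were called higher and 27.3% lower (55.4% in either direction). That background also applies to the granzyme and perforin list above, and the counts of these lists are read only as a description. The T cell genes highest in LSK were Cd27 (155 to 162 CPM), Ubash3a (43.9 to 49.9) and Lat (26.3 to 38.2); Ubash3a was the gene lower in LSK than in GMP (−1.35 ± 0.12). The T cell receptor constant gene Trbc2 was at 1.4 to 1.94 CPM in LSK and at 0.0108 to 0.0669 in GMP, and the kinase gene Zap70, which binds the CD3 complex, was at 0.776 to 1.53 in LSK and 0 to 0.220 in GMP. Trbc2 and Zap70 were singled out after their values were seen.

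The same comparison in KO gave 4 members higher and 1 lower, where 60.9% of genes tested passed (30.7% higher, 30.1% lower). Cd3e had 30 reads in LSK KO (17 in KO-1327, 0 in KO-1333 and 13 in KO-1334) and 1 in GMP KO, in KO-179. The ratio per read depth was 110, with a 95% exact counting interval of 18.2 to 4466. This interval covers counting error in the pooled reads and not the spread between libraries, and LSK KO-1333 overlapped the GMP KO libraries. Cd3g (2.68 ± 0.96, edgeR adjusted p = 0.033), Cd8a (3.59 ± 1.04, 0.012; 5.40 without GMP KO-179) and Tcf7 (1.30 ± 0.39, 0.015) were higher in LSK KO, and Nkg7 was lower (−1.93 ± 0.14, 1.45e-06). Without LSK KO-1334 the count higher was 2, and without GMP KO-352 the count lower was 3. The call of Cd3g was lost without any 1 of the 5 LSK libraries (edgeR adjusted p 0.051 to 0.089), and that of Tcf7 without LSK KO-1334 (edgeR adjusted p = 0.063). Cd4, Klrb1c, Il2rb, Gzma and Gzmb did not pass in KO, with log2 fold changes of 0.65 ± 0.34, −0.81 ± 0.63, 1.4 ± 0.88, −2.06 ± 1.20 and −0.76 ± 0.48. Without GMP KO-352, Klrb1c (−1.30 ± 0.25, edgeR adjusted p = 0.0012) and Gzma (−2.61 ± 0.64, 0.0053) were called lower in LSK KO, and without GMP KO-179 Cd4 was called higher (1.01 ± 0.34, 0.026).

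The second question was how the members differed between KO and CTRL within GMP. Of the 10 members 9 passed the filter on low counts, and 0 of 9 were called by edgeR, where 0.0347% of genes tested were called (0.0231% higher, 0.0116% lower). At an unadjusted p under 0.05, edgeR counted 3 members higher and 2 lower, where 2387 of the 17290 genes tested were in either direction. The same background applies to the unadjusted counts of the lists in GMP below. DESeq2 called 2 members higher and 1 lower, and limma-voom called 0. Cd4 and Klrb1c were higher in all KO than in all CTRL libraries (2 of 9, where 16.5% of genes tested were), and Nkg7 and Gzmb lower in all KO libraries (2 of 9, where 15.1% were). The members did not share a pattern across the 5 libraries. They fell into the orders described next, and in such bulk samples fewer cells of a type and less RNA per cell cannot be told apart.

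Cd4 was the member whose 3 KO libraries were all well above CTRL. It had 274 reads (2.62 CPM) in KO-178, 484 (3.81 CPM) in KO-179 and 162 (1.64 CPM) in KO-352, against 12 (0.129 CPM) in CTRL-346 and 22 (0.230 CPM) in CTRL-350. The lowest KO library lay far above the highest CTRL library, and KO-352, which was low in the NK cell genes, had the level nearest to CTRL. The log2 fold change was 3.89 ± 0.53 (SE), with an edgeR adjusted p of 0.17 and an unadjusted p of 1.76e-04. It did not pass, and over 12 alternatives the log2 fold change was 3.18 to 4.35 and the gene was called in 5 of them, with adjusted p from 1.38e-10 (DESeq2) to 0.73. Without both KO-178 and KO-179 it was 3.18 ± 0.68 (edgeR adjusted p = 0.73), so the log2 difference of KO-352 alone from CTRL was smaller but of the same sign.

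Cd4, Cd3g and Cd3d all had KO-178 and KO-179 as their highest GMP libraries, but KO-352 had reads of Cd4 with few or none of the CD3 genes. In KO-352, with 162 reads of Cd4, there were 0 reads of Cd3e and of Cd3g, 3 of Cd3d, 1 of Cd8a, 1 of Trac and 2 of Trbc2. In KO-179, with 484 reads of Cd4, there was 1 read of Cd3e, 18 of Cd3g and 65 of Cd3d. In KO-178, with 274 reads of Cd4, there were 0 reads of Cd3e, 18 of Cd3g, 25 of Cd3d and 13 of Trac. The genes on both sides of Cd4 (chr6:124864692-124888221, minus strand, GRCm38 with GENCODE vM21, protein-coding, no annotated overlap) had other orders: Gpr162 was at 0.115, 0.377 and 0.0910 CPM in the KO libraries and 0.0863 and 0.125 in CTRL, and Lag3, which encodes an inhibitory receptor that binds MHC class II, was at 2.59, 3.66 and 0.971 CPM in KO and 0.938 and 2.66 in CTRL. For both neighbours the KO and CTRL libraries overlapped.

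The gene most like Cd4 over the 10 libraries was Flt3, the receptor gene for a growth factor of multipotent, lymphoid-primed and dendritic progenitors. Likeness was taken as the root mean square difference in log2(CPM + 0.5) after the mean of each population was removed, and was 0.25 for Flt3 beside a spread of 0.85 for Cd4 itself. With libraries in the order given above, Flt3 was at 87.3, 155 and 71.3 CPM in KO and at 13.7 and 20.3 in CTRL. The next were Slc30a4 (0.28), a zinc transporter gene, and Smkr-ps (0.29), at 2.48, 4.10 and 1.87 CPM in KO and 0.302 and 0.313 in CTRL. In GMP all 3 genes had the order of Cd4, KO-179 highest and KO-352 the lowest of the KO libraries, with both CTRL libraries below. They were picked for their likeness to Cd4, so this shared order follows from the choice. It did not extend to LSK, where Cd4 peaked in KO-1334 (6.30 CPM). Flt3 instead peaked in KO-1327 (584.5 CPM, beside 457.1 in KO-1334), Slc30a4 in KO-1333 and Smkr-ps in CTRL-1326.

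The CD3 genes and Cd8a gave almost no signal in GMP. Cd3e (chr9:44998740-45009627) had 1 read in 5 libraries, in KO-179, and was not tested. It overlaps Gm48719 and, on the same strand, Gm48720, neither of which was among the genes used here. Cd3g (chr9:44969572-44980431) had 18, 18 and 0 reads in the KO libraries and 0 and 11 in CTRL. Cd3d, which lies between them, had 25, 65, 3, 8 and 19 reads in the same libraries. For Cd3g and Cd3d the KO and CTRL libraries overlapped, and the log2 fold change of Cd3g was 0.85 ± 1.56 (edgeR adjusted p = 0.83), with its sign reversed in 2 alternatives.

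Cd8a (chr6:71373427-71379173) was high in another pair of libraries, at 0.291 CPM in KO-179 and 0.303 in CTRL-350 against 0.0574 in KO-178, 0.0101 in KO-352 and 0 in CTRL-346. KO-179 and CTRL-350 were its highest libraries, an order that 9.75% of all genes tested had. The log2 fold change was −0.31 ± 1.54 (edgeR adjusted p = 0.95) and had no steady sign. Genes of conventional dendritic cells had the same pair on top: Xcr1, a chemokine receptor gene of cross-presenting dendritic cells, had 102, 536 and 40 reads in the KO libraries and 49 and 438 in CTRL, and Clec9a had 59, 329, 22, 52 and 404. In the dendritic and plasmacytoid list 7 of 15 genes tested had that order and the summed level without the 3 most abundant genes was 40.9, 81.8 and 35.0 CPM in KO and 43.0 and 111 in CTRL. Cd8b1, the partner chain of CD8 alpha on most T cells, had 3, 2, 0, 0 and 22 reads. The part of dendritic cells in the level of Cd8a was not tested; Xcr1, Clec9a and Cd8b1 were singled out after their values were seen.

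Klrb1c, Il2rb and Gzma were high together in KO-178 and KO-179. Klrb1c (chr6:128778485-128789215) reached 4.26 CPM in KO-178 and 5.12 in KO-179, whereas KO-352 was at 0.455, CTRL-346 at 0.173 and CTRL-350 at 0.240. Il2rb (chr15:78479256-78495271) was at 1.69, 0.951 and 0.0505 CPM in KO and at 0 and 0.0940 in CTRL. Gzma (chr13:113093825-113100981) had 84, 86 and 0 reads in KO and 0 and 5 in CTRL. Klrb1c overlaps Gm44511 on the same strand, which was not among the genes used here, and reads shared with other Klrb1 genes would make its level uncertain. For each of the 3 genes KO-352 lay far nearer to CTRL than to the other KO libraries, and for Il2rb and Gzma the groups overlapped.

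None of the 3 passed over all genes. The log2 fold changes were 3.98 ± 1.03 for Klrb1c (edgeR adjusted p = 0.28), 4.21 ± 1.63 for Il2rb (edgeR adjusted p = 0.34) and 4.17 ± 1.90 for Gzma (edgeR adjusted p = 0.38). Without KO-352 Klrb1c was called (4.50 ± 0.36, edgeR adjusted p = 0.025), and DESeq2 called it with all libraries (adjusted p = 2.74e-04). The values of Il2rb and Gzma were 3.24 and 3.21 without CTRL-346, and 9.57 and 8.71 without CTRL-350, when the remaining CTRL library had 0 reads. Without both KO-178 and KO-179 the log2 fold change of Klrb1c was 1.14 ± 0.84. The size of the Klrb1c difference therefore rested on KO-178 and KO-179, in contrast to Cd4.

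KO-178 and KO-179 both lay above the other 3 GMP libraries for 6 of the 9 members tested, an order that 24.4% of all genes tested had. The 6 were Cd4, Cd3g, Gzma, Klrb1c, Il2rb and Tcf7. In the NK and cytotoxic list 14 of 17 genes tested had it, in the T cell list 7 of 17, in the mature neutrophil list 5 of 10 and in the LSK gate and stem cell list 7 of 8. The order was thus common among NK cell genes and among stem cell genes alike, and lists of members that passed a filter on low counts carry no test.

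Some NK cell genes with few reads elsewhere showed this pair most plainly. They were singled out for that after their values were seen, so their pattern follows from the choice. Ncr1, the gene of the activating receptor NKp46, had 50 reads in KO-178, 27 reads in KO-179, only 2 in KO-352 and none listed in CTRL (0 and 0 reads). With reads pooled over the KO libraries, this is at least 15-fold higher if 3 reads are taken as the CTRL floor. Klrb1a, a relative of Klrb1c, had 26, 48 and 0 reads in KO and 0 in CTRL (at least 14.1-fold), and Klra4, a gene of the Ly49 receptor family, had 31, 27 and 0 reads in KO and 0 in CTRL (at least 11.0-fold). These pooled bounds rest on KO-178 and KO-179 and do not hold for KO-352. Eomes, a T-box factor of mature NK cells, had 27, 7 and 0 reads in KO and 0 and 1 in CTRL. These genes were at or near 0 in KO-352 and in both CTRL libraries, where Klrb1c had 45 reads in KO-352, 16 in CTRL-346 and 23 in CTRL-350. Other genes of the list had another order. Klrg1 had 0 reads in each KO library and 1 and 6 in CTRL, and Klra3 had 2, 5 and 3 reads in KO and 4 and 1 in CTRL. Klrk1 was highest in KO-179 and CTRL-350.

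Across the whole NK and cytotoxic list, 16 of the 17 genes tested in GMP had a positive log2 fold change and 0 were called by edgeR (5 higher at an unadjusted p under 0.05). The median was 1.59, also with the 4 genes of 0 reads in CTRL at their bounds, beside 0.01 over all genes tested. Genes such as Ncr1, Klrb1a and Klra4 passed the filter on low counts only through KO-178 and KO-179, where they were high, while Klrg1 and Klra3 did not pass it. The count of signs and the median therefore carry no test. Of the 27 genes of the list, 1 was at 0 reads in KO-178, 2 in KO-179, 13 in KO-352, 13 in CTRL-346 and 10 in CTRL-350. Its summed level without the 3 most abundant genes was 12.9, 13.2 and 6.15 CPM in KO and 5.50 and 9.19 in CTRL. The 3 most abundant were Cst7, a cystatin gene (296 to 379 CPM), Il18rap (39.2 to 110 CPM), a chain of the IL-18 receptor, and Klrb1f (12.3 to 22.7 CPM), and Cst7 and Klrb1f did not have KO-178 and KO-179 on top. The part of NK cells in the levels of Klrb1c, Il2rb and Gzma was not tested.

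**Figure D2:**
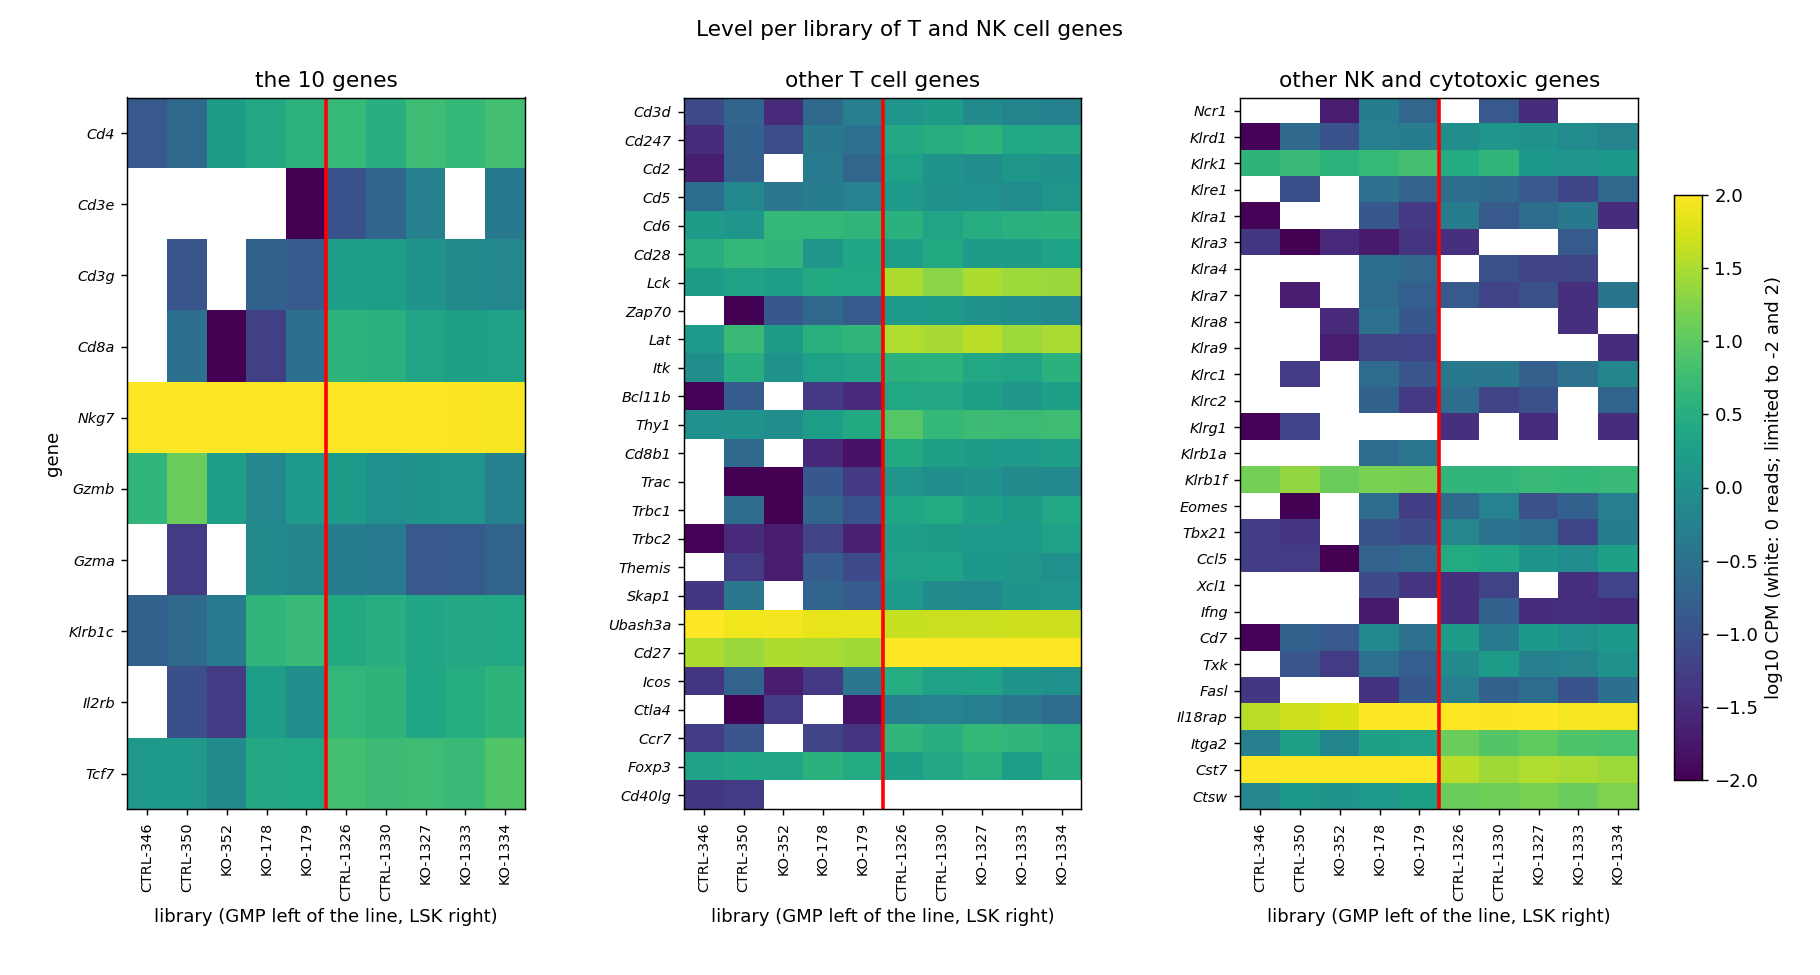
Level per library (log10 CPM as colour, white for 0 reads, limited to −2 and 2) of the 10 genes and of the T cell and NK lists, GMP left of the red line and LSK right of it. Among NK genes such as Ncr1 and Klra4 colour appears in GMP only for KO-178 and KO-179 or nearly so, while the CD3 genes are pale or dark throughout GMP.

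The T cell list was mixed in GMP: 10 of the 17 genes tested were positive and 7 negative, 0 were called by edgeR (2 higher at an unadjusted p under 0.05), and the median log2 fold change was 0.38. Its summed level without the 3 most abundant genes was 17.4, 19.4 and 12.7 CPM in KO and 10.9 and 21.4 in CTRL, so that CTRL-350 was the highest library. Cd6, a T cell adhesion receptor gene, and Zap70 were above CTRL in all 3 KO libraries (2 of 17, where 16.5% of all genes tested were). Cd6 was at 4.64, 4.20 and 4.58 CPM in KO and 1.64 and 1.24 in CTRL (1.63 ± 0.26, edgeR adjusted p = 0.21), and Zap70 had 23, 17 and 12 reads in KO and 0 and 1 in CTRL.

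The other genes of the IL-2 and IL-15 receptor pathway had KO-178 and KO-179 on top in 1 case of 7 tested in GMP. In this list 0 were called by edgeR (1 higher at an unadjusted p under 0.05), 3 were positive and 4 negative. Il15ra, the private chain of the IL-15 receptor, was at 33.9, 30.9 and 21.4 CPM in KO and at 16.6 and 16.6 in CTRL (0.79 ± 0.21, edgeR adjusted p = 0.28), and Jak1, the most abundant, was at 231 to 267 CPM in all 5 libraries. The gene closest to Il2rb in pattern after Igkv1-117 (0.23), an immunoglobulin light chain segment, was Gzma itself (0.24), followed by P2ry12 (0.26), a purine receptor gene. Klrb1c lay closest to Gm27252 (0.20), to Il1r2 (0.27), a decoy receptor gene for IL-1, and to Cd38 (0.30), an ectoenzyme gene. Il1r2 was at 9.50, 15.9 and 2.58 CPM in KO and at 0.928 and 1.44 in CTRL.

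Gzmb and Nkg7 lay in the opposite direction. Gzmb (chr14:56258838-56262260) was at 4.33 CPM in CTRL-346 and 12.2 in CTRL-350, while KO-178 had 0.708, KO-179 had 1.38 and KO-352 had 1.77. KO-178 had the highest level of Gzma (0.803 CPM) and the lowest of Gzmb. The log2 fold change was −2.68 ± 0.53 (edgeR adjusted p = 0.26), and it was called lower in 3 of 12 alternatives (adjusted p from 4.27e-05 with DESeq2 to 0.045). It was −3.24 without CTRL-346 and −1.76 without CTRL-350, the library with the most Gzmb. The genes most like Gzmb were Prg3 (0.35), a granule protein gene of eosinophils and basophils, Ear2 (0.39), an eosinophil-associated ribonuclease gene, and Mcpt8 (0.40), a protease gene of basophils.

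Mcpt8 was at 102, 122 and 96.6 CPM in KO and at 141 and 614 in CTRL. In the mast cell and basophil list 8 of 8 genes tested were negative, with a median log2 fold change of −1.26, 1 called lower and 7 lower at an unadjusted p under 0.05. The gene called was Hdc, histidine decarboxylase, at 194, 201 and 196 CPM in KO and at 418 and 399 in CTRL (−1.05 ± 0.10, edgeR adjusted p = 0.041). This call was lost with limma-voom and without KO-178 or KO-179, where no gene was called lower. The summed level of the list was 661, 825 and 500 CPM in KO and 1003 and 2592 in CTRL, with CTRL-350 the highest for the sum and for Gzmb. The part of mast cells and basophils in the level of Gzmb was not tested.

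**Figure D3:**
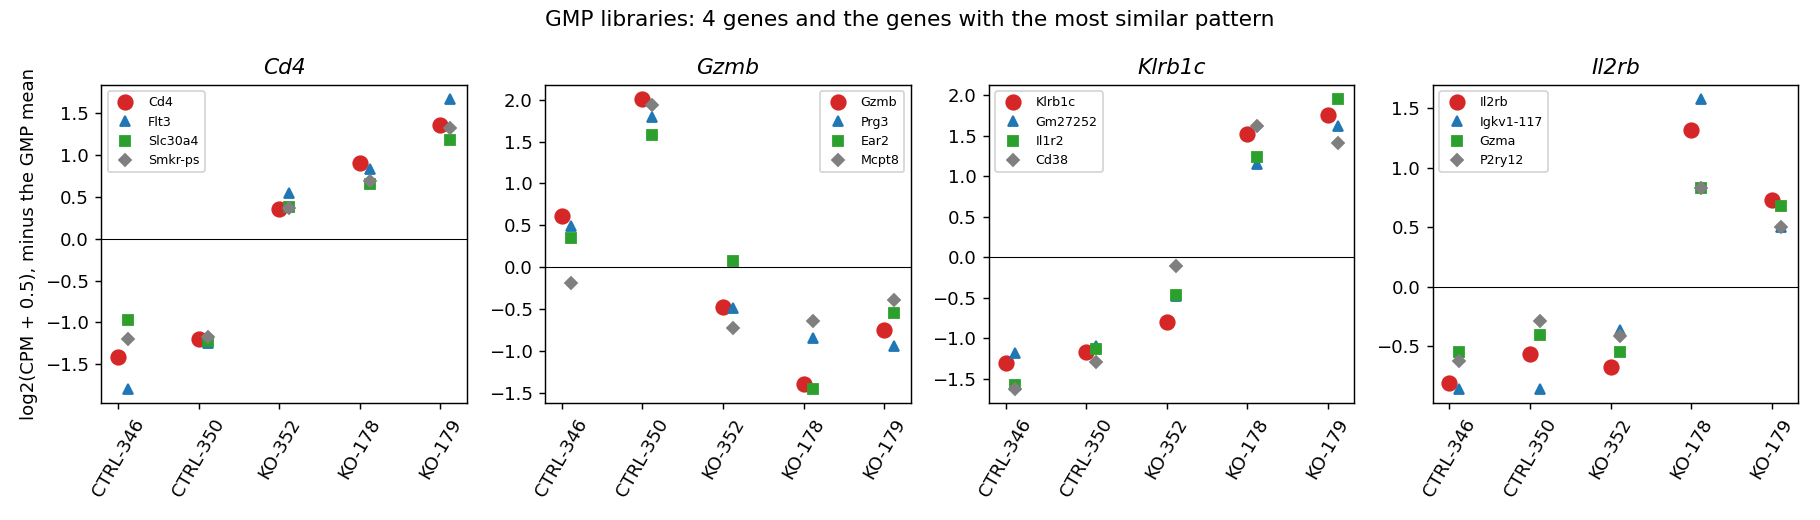
Pattern of Cd4, Gzmb, Klrb1c and Il2rb (large circles) and of the 3 genes most like each, over the 5 GMP libraries, as log2(CPM + 0.5) minus the GMP mean. KO-352 lies with the other KO libraries for Cd4 and Flt3 and between CTRL and the other KO libraries, or with CTRL, for Klrb1c and Il2rb. Genes beside a member were picked for likeness to it, so their shared pattern follows from the choice.

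Nkg7 (chr7:43437073-43438249) was at 295, 239 and 313 CPM in KO and at 450 and 364 in CTRL, lower in every KO library by a modest amount (−0.53 ± 0.16, edgeR adjusted p = 0.31). Here KO-352, low in NK cell genes, had the most Nkg7 of the KO libraries, so Nkg7 did not follow Klrb1c. Its neighbours Lim2 and Cldnd2 were at 0 to 0.0236 and at 1.50 to 2.59 CPM, far below it. Tcf7 (chr11:52252371-52283014) was at 2.56, 2.45 and 0.789 CPM in KO and at 1.42 and 1.4 in CTRL, so the KO libraries lay on both sides of CTRL (0.45 ± 0.51, edgeR adjusted p = 0.71). Tcf7 overlaps Gm26551 on the same strand, which had 12 to 47 reads in the libraries. Of 13 genes tested in the TCF/LEF pathway and early T lineage list 0 were called by edgeR (0 higher and 4 lower at an unadjusted p under 0.05) and the median was 0.07. The related factor Lef1 had 6, 10 and 1 reads in KO and 1 and 5 in CTRL, and the T lineage factor Gata3 had 5, 1 and 4 reads in KO and 4 and 7 in CTRL.

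Markers of further cell types differed between the GMP libraries. The mature neutrophil list, led by S100a8 at 325 to 1465 CPM, summed to 2176, 4253 and 551 CPM in KO and 934 and 2210 in CTRL, with 10 of 10 genes positive and 0 called (median 0.76). CTRL-350 was thus as high as KO-178, and 5 of the 10 genes had KO-178 and KO-179 on top while the other 5 had KO-179 and CTRL-350 on top. The LSK gate and stem cell list without its 3 most abundant genes, Kit, Hlf and Mecom, summed to 4.23, 4.22 and 1.89 CPM in KO and 1.63 and 2.40 in CTRL, with 7 of 8 genes positive and 0 called (median 0.62). The GMP gate and granule list summed to 14830, 12910 and 18100 CPM in KO and 22060 and 16610 in CTRL. KO-178 and KO-179 thus had more of the NK, neutrophil and stem cell genes and less of the GMP granule genes than KO-352, and the part of these shifts in the levels of Klrb1c, Il2rb, Gzma and Cd4 was not tested.

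In LSK 7 of the 10 members spanned a narrower range of log2(CPM + 0.5) between libraries than in GMP, and Cd3e, Cd3g and Cd8a, which had few or no reads in GMP, a wider one. For these genes the added 0.5 exceeds every GMP level and flattens the GMP span. Cd8a ran from 0 to 0.303 CPM in GMP and from 1.81 to 3.92 in LSK. With CPM scaled over all 10 libraries together, the span of log2(CPM + 0.5) over the 5 libraries of a population was at most 0.98 (Cd3e) in LSK and reached 3.47 (Gzmb) in GMP. Of 10 members tested 0 were called by edgeR, where 0.0232% of genes tested were called (0.0116% in either direction alone), and the adjusted p was 0.9998 for each. At an unadjusted edgeR p under 0.05, 0 were higher and 3 lower, where 487 of the 17238 genes tested were in either direction. The same background applies to the unadjusted counts of the lists in LSK below. DESeq2 and limma-voom called 0 members. No member was above CTRL in all KO libraries (7.56% of genes tested were), and Cd3g, Cd8a, Gzma and Klrb1c were below CTRL in all of them (4 of 10, where 7.26% were). The median log2 fold change was −0.30 over the members and 0.00 over all genes tested.

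Cd8a and Cd3g lay below CTRL in every LSK KO library without passing. Cd8a stood at 2.17, 1.81 and 1.94 CPM in the KO libraries (in the order given above) and at 3.92 and 3.43 in CTRL, a log2 fold change of −0.89 ± 0.24 (edgeR unadjusted p = 0.0048). Cd3g was at 1.184, 0.820 and 0.711 CPM in KO and at 1.74 and 1.67 in CTRL (−0.91 ± 0.35, edgeR unadjusted p = 0.029). For both genes the KO libraries were below CTRL among the male and among the female libraries. Cd3d had 24, 19 and 18 reads in KO and 36 and 47 in CTRL (−1.05 ± 0.37, edgeR unadjusted p = 0.018), also with no overlap. Cd3e had 17, 0 and 13 reads in KO and 3 and 6 in CTRL, with overlapping groups (1.10 ± 1.09).

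Cd4 was at 5.82, 4.58 and 6.30 CPM in LSK KO and at 4.84 and 3.26 in LSK CTRL, with overlapping groups (0.46 ± 0.24). The order of Cd4 over the groups was GMP CTRL, GMP KO, LSK CTRL and LSK KO by mean, at 0.180 ± 0.071 (SD, n = 2), 2.69 ± 1.09 (n = 3), 4.05 ± 1.11 (n = 2) and 5.57 ± 0.89 CPM (n = 3). The libraries of both LSK groups overlapped, as did those of GMP KO and LSK CTRL on their separate scalings, and GMP CTRL lay apart from all. Tcf7 was at 5.63, 5.09 and 8.08 CPM in KO and 6.23 and 5.53 in CTRL (0.09 ± 0.23), and Il2rb at 2.34, 3.01 and 4.04 in KO and 4.53 and 3.93 in CTRL (−0.43 ± 0.27).

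Of the members Gzma had the fitted difference farthest from 0 in LSK, on few reads, and the other cytotoxic members differed less. Gzma had 4, 4 and 6 reads in KO and 14 and 14 in CTRL (−1.59 ± 0.58, edgeR unadjusted p = 0.022), Klrb1c was at 2.27, 2.60 and 2.52 CPM in KO and 2.69 and 3.16 in CTRL (−0.25 ± 0.24), and Gzmb was at 1.184, 1.23 and 0.582 CPM in KO and 1.50 and 1.03 in CTRL (−0.34 ± 0.42). Nkg7 was at 108, 94.6 and 90.3 CPM in KO and 129 and 102 in CTRL (−0.24 ± 0.11). The LSK level of Klrb1c lay between the CTRL level of GMP and that of KO-178 and KO-179, and other NK cell genes, singled out after their values were seen, differed among themselves. Ncr1 was at 0 to 0.133 CPM in LSK and 0 to 0.478 in GMP, whereas Klrd1, an NK receptor gene, was at 0.614 to 1.27 CPM in LSK and 0.0108 to 0.507 in GMP, and the chemokine gene Ccl5 at 0.922 to 2.76 CPM in LSK and 0.0101 to 0.244 in GMP. In the T cell list 18 of 24 genes tested were negative and 6 positive with 0 called (median −0.29), and in the NK and cytotoxic list 11 of 14 were negative with 0 called (median −0.31); 2 genes of each list were lower at an unadjusted p under 0.05, and 0 higher. The summed level of the T cell list without its 3 most abundant genes was 60.9 to 73.8 CPM in KO and 62.8 to 81.3 in CTRL.

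**Figure D4:**
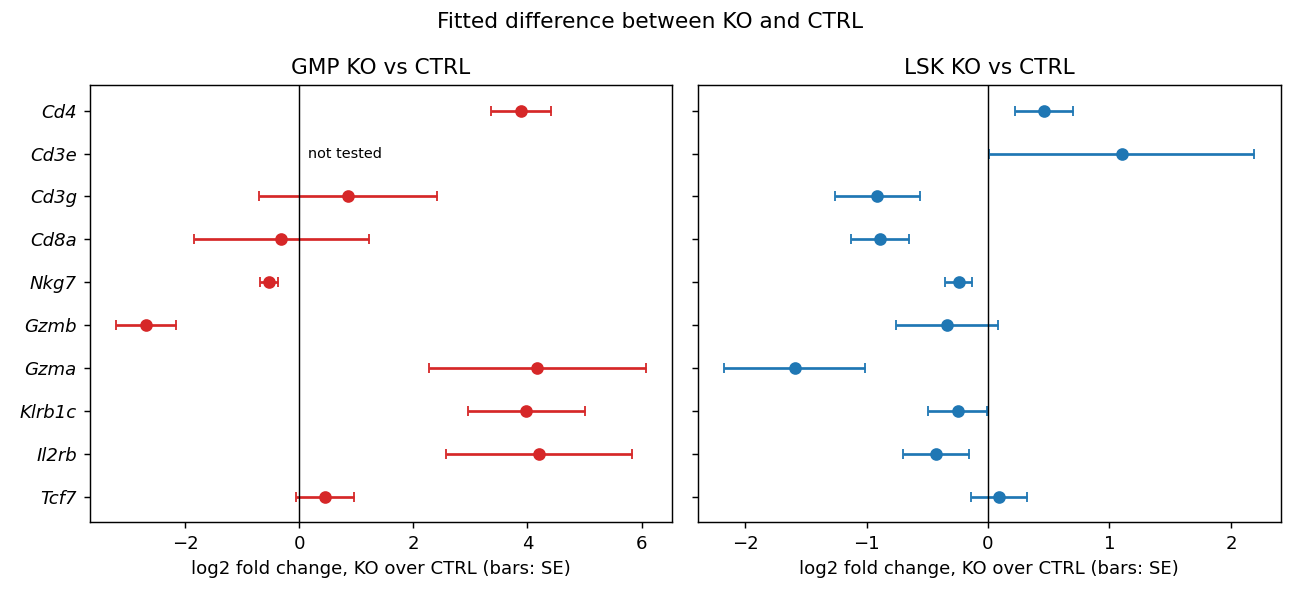
Fitted log2 fold change of KO over CTRL for each gene, with its SE as bars, in GMP (left) and LSK (right); the horizontal scales differ. In GMP the values run from −2.68 (Gzmb) to 4.21 (Il2rb), in LSK from −1.59 (Gzma) to 1.10 (Cd3e), and none passed over all genes.

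Whether the KO difference itself was unlike in the populations was tested as an interaction (LSK minus GMP). Of 10 members 0 were called by edgeR, where 0.0265% of genes tested were called (0.00531% higher, 0.0212% lower). At an unadjusted edgeR p under 0.05, 1 was higher and 4 lower, where 1894 of the 18836 genes tested were in either direction. DESeq2 called 2 members lower and limma-voom called 0. Cd4 had the smallest p among the members, with an interaction of −3.45 ± 0.58 on the log2 scale (edgeR adjusted p = 0.14), followed by Klrb1c at −4.24 ± 1.07 (edgeR adjusted p = 0.33). Gzma was at −5.75 ± 2.04, Il2rb at −4.65 ± 1.59 and Gzmb at 2.32 ± 0.76, with edgeR adjusted p of 0.41 to 0.43. Without GMP KO-352, Cd4, Klrb1c, Gzma and Il2rb were called, with edgeR adjusted p of 0.012, 0.0020, 0.027 and 0.033.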

How the data were processed

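RNA of sorted bone marrow cells was sequenced in 10 libraries. Per the labels' protocols, marrow was depleted of lineage-positive cells, sorted by FACS, and made into stranded total RNA libraries after removal of ribosomal RNA. The deposited tables hold raw counts of reads per Ensembl gene, with 38924 gene IDs in GMP and 45513 in LSK and 38086 in both. The submitters' processing notes name the build mm10 (GRCm38) and, in no stated role, DESeq2 1.4.5, DESeq 1.18.0, HTSeq 0.5.3p3 and STAR; annotation release and strand setting are not given in the labels or file headers. Reads of overlapping genes and of near-identical relatives may therefore be shared, as for the Klra and Klrb1 genes. The authors also deposited a normalized signal, which matched counts over a library's size factor to 0.1% in 99.92% or more of the genes with at least 50 reads, and served only to recover those factors. Lines of totals in the GMP table named no gene and entered neither library sizes nor tests; the share of reads outside genes comes from them.

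Counts were tested with edgeR 4.0.16 in R 4.3.3: filterByExpr (minimum count 10), TMM, the two-sided quasi-likelihood test, Benjamini-Hochberg adjustment over the tested genes, with 0.05 as threshold. Each population was fitted apart (17290 and 17238 genes), and all libraries together over the shared gene IDs (18836 genes) for LSK against GMP and for the interaction. SE is the absolute log2 fold change over the root of the F statistic. CPM uses TMM library sizes of each population. Where a group had 0 reads a floor of 3 reads over the group gave a lower bound, and ratios over 1 to 3 reads have 95% exact intervals; both cover counting error only, since reads carry no molecular identifiers. DESeq2 1.42.0 and limma-voom (limma 3.58.1) were among the alternatives. Groups follow the sample titles, and no 2 groups share a number. The members and the 13 other gene lists were chosen with earlier results of these data known. Named are all members, at most the 3 most abundant and the called genes of a list, the nearest annotated genes, and, for members spanning more than 2 in log2(CPM + 0.5) within a population, the 3 genes with the smallest root mean square difference; other genes named, among them Cd3d, Trac, Il15ra, Prf1, Lef1 and Gata3, were singled out after their values were seen. Coordinates are 1-based from GENCODE, promoters from RefSeq (GRCm38.p6).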

Additional observations from a re-analysis of the deposited data

Results flagged for a closer look

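Among the members and the genes of the 13 other lists, 1 gene was called in the interaction, out of 5 called over all genes tested. Hdc, the mast cell and basophil gene that was lower in GMP KO, had an interaction (LSK minus GMP) of 0.98 ± 0.11 on the log2 scale (edgeR adjusted p = 0.015). In LSK it was at 22.2, 23.1 and 23.6 CPM in KO and at 23.7 and 23.9 in CTRL (−0.05 ± 0.11), while in GMP all 3 KO libraries lay below both CTRL libraries. The interaction call of Hdc depended on the processing. With limma-voom, or without LSK KO-1333 or KO-1334, no gene was called higher in the interaction.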

How the results depend on the processing

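Over 625 values of single members under alternatives, 571 kept their direction and side of the threshold, 22 passed where the main value did not, 18 no longer passed and 14 reversed; for 3 DESeq2 gave no adjusted p. Genes called in GMP KO against CTRL were 6, and 703 with DESeq2, 182 in the joint fit, 0 with limma-voom, 50 without the filter on low counts, 205 with a term for the share of reads outside genes, 3 without both KO-178 and KO-179 (chosen after seeing the data) and 1 to 172 with a library left out, the most without KO-352. Members called higher there were 0, and 2 with DESeq2, 1 in the joint fit, 1 without the filter, 1 with the share as a term and 0 to 2 with a library left out; members called lower were 0, and 1 with DESeq2, 1 in the joint fit and 1 without the filter. In LSK 4 genes were called, and 19 with DESeq2, 0 in the joint fit, 27 without the filter and 3 to 11 with a library left out. The interaction called 5 genes, and 214 with DESeq2, 2 with limma-voom, 38 without the filter and 1 to 513 with a library left out; members lower were 0, and 2 with DESeq2, 1 without the filter and 0 to 4 with a library left out. Members higher in LSK were 4 to 8 in CTRL and 2 to 5 in KO with a library left out, and members lower 1 to 3 in KO.

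Reversed values were those of Cd3g in GMP (−1.31 with the share as a term, and −0.12 to 6.49 with a library left out), Cd8a in GMP (0.76 with limma-voom, −1.31 to 6.69, among them 0.00, 0.21 and 6.69), Tcf7 in GMP (−0.83 without both KO-178 and KO-179, −0.15 with the share as a term), Tcf7 in LSK (−0.13 to 0.23), and the interactions of Cd3e (−1.0 to 1.10, among them 0.15 and 0.19) and Cd8a (−7.01 to 1.19, among them 0.36). The cause was not tested. No paired analysis was possible because the numbers in the titles are shared by no 2 groups. Where an arm was left with 1 library, that library was assumed to vary like the others. Depth limits the CD3 genes and Gzma, with 0 to 18 reads in the GMP libraries for Cd3g and 4 to 14 in LSK for Gzma.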
